A study of Mus musculus with 12 samples.

Results

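H3K9me2 regions at olfactory receptor genes were examined in the prefrontal cortex of mice. H3K9me2, dimethylation of lysine 9 of histone H3, is a mark of repressed chromatin, and it was profiled by chromatin immunoprecipitation and sequencing (ChIP-seq). A region belonged to the set when the gene it overlapped, or otherwise the gene whose start was closest, had a symbol starting with Olfr and a digit, and when it lay on an autosome. The set held 887 of 55253 regions over the 2 deposited tables together, assigned to 545 of the 1420 autosomal receptor genes in the RefSeq annotation. The table of FAD and wild-type (WT) mice held 568 receptor regions of 33787, at 424 receptors. The table of FAD-BIX and FAD mice held 719 of 43680, at 499 receptors, and 400 receptor regions had the same bounds in both tables. Receptor regions less than 1 Mb apart on a chromosome were joined, which gave 41 clusters.

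The study asked how H3K9me2 differs in a model of familial Alzheimer's disease and under inhibition of its writers, the methyltransferases EHMT1 and EHMT2. All 6 mice were C57BL/6 and 5 to 6 months old. The WT group was 2 untreated mice. The FAD group was 2 mice that carry mutations of familial Alzheimer's disease, and the FAD-BIX group was 2 FAD mice given BIX01294, an EHMT1/2 inhibitor. The labels do not name the mutations, the transgene promoter, the dose or the sex, and all FAD-BIX mice also carried the FAD mutations. A ChIP and an input library came from each mouse, 12 libraries in all.

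Olfactory receptors are G protein-coupled receptors that detect odorants, and they form the largest gene family of the mouse genome. Their genes lie in clusters, and most have their whole coding sequence in 1 short exon. Class I receptors resemble those of fish and lie in a single cluster on chromosome 7, and class II receptors are spread over many clusters. Each olfactory sensory neuron expresses a single receptor allele, while the others are kept in constitutive heterochromatin marked by H3K9me3 and H4K20me3. The receptor gene clusters are silent in nearly all cortical cells.

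The coding sequence is where many of the receptor regions lay, and 4 starts with a region over them are printed to show what such a region covers. RefSeq (GRCm38.p6) gave start windows of 300 bases, 250 before the annotated start and 50 after it, for 938 autosomal receptors. In 72.2% of the 942 windows the annotated start is itself an ATG, so that these windows show the bases around the start codon and not around a mapped transcription start. Regions of the tables met the window of 28 receptors, and 21 of these had such an ATG start. The 4 of these 21 with most ChIP reads in the region were at Olfr457 (chr6:42472127-42472426, minus strand), Olfr532 (chr7:140419722-140420021, minus strand), Olfr237 (chr6:43153057-43153356, plus strand) and Olfr1341 (chr4:118709159-118709458, plus strand). Capitals mark the bases inside the region, to within 1 base, and the start codon begins at base 251. The region covered 136 bases of the window at Olfr457, 86 at Olfr532, 36 at Olfr237 and 276 at Olfr1341, and it took in the start codon at all but Olfr237, where it began inside the coding sequence.
Olfr457: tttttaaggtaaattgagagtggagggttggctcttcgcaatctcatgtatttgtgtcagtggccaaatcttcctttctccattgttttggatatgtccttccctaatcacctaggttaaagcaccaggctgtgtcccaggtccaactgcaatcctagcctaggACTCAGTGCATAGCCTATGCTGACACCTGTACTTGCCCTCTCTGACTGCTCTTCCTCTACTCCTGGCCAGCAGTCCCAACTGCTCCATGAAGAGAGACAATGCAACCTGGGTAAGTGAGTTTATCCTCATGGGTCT
Olfr532: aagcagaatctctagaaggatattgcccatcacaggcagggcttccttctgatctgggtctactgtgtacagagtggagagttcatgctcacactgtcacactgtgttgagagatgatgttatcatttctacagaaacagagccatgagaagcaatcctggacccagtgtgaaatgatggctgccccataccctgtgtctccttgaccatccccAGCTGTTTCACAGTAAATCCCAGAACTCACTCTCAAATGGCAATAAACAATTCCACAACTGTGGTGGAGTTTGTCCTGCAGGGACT
Olfr237: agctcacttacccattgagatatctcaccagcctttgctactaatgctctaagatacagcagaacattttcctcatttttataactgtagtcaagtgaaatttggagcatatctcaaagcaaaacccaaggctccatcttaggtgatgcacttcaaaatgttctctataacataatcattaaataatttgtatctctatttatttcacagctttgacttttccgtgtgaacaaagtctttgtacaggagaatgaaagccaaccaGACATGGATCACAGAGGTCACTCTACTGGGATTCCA
Olfr1341: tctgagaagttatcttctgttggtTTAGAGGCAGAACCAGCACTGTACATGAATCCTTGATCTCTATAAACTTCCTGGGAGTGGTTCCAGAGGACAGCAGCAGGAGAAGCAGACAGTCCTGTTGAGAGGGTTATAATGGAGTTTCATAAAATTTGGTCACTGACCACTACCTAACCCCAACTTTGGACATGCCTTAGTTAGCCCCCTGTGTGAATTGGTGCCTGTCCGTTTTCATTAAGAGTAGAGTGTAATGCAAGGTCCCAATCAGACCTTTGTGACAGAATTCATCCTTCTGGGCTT

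The region over the start of Olfr457 (chr6:42471251-42472262) held 32 and 62 ChIP reads in FAD 1 and FAD 2 and 26 and 33 in FAD-BIX 1 and 2, against 8, 5, 12 and 5 input reads. At Olfr1341 (chr4:118709183-118709920) the ChIP reads were 19 and 30 in FAD and 31 and 20 in FAD-BIX, and the input reads 2, 2, 8 and 4. At Olfr532 (chr7:140419044-140419807) they were 11 and 35 in WT and 26 and 41 in FAD, with input reads of 10, 11, 0 and 6. At all 3 regions ChIP reads outnumbered input reads in every mouse, and the groups overlapped. The receptor windows were rich in A and T, with a median GC content of 35% against 52.7% over all 32851 windows of the annotation. The motif TAATTA, which reads the same on both strands and is the core bound by homeodomain factors such as Lhx2, was in 18.7% of receptor windows and 5.29% of all windows. TATAAA, searched on both strands, was in 41.1% and 13.6%. Of the 28 receptors with a region over the window, 3 had TAATTA. These are counts of letters in a window, and the difference in base composition was not taken into account.

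ChIP libraries held 20.45 to 26.58 M reads and input libraries 13.92 to 23.76 M, of which 6798 to 13980 ChIP reads and 1535 to 2997 input reads per table fell in receptor regions. A library labelled FAD stood apart from its partner in 2 ways. At a region beside Thy1 (chr9:44042064-44042390), whose promoter drives the transgenes of many Alzheimer's models, input was 24.6 RPM (reads scaled to the library total in M) in FAD 2 and 32.6 and 18.7 in FAD-BIX 1 and 2, but 0.627 in FAD 1. In WT 1 and 2 it was 0.0842 and 0.692 in the overlapping region of the other table. ChIP reads at regions of 5 of 13 heart muscle genes, a list chosen because earlier results of these data showed it, summed to 65 RPM in FAD 1, 17.1 in FAD 2, and 9.64 and 6.88 in WT. Regions at 4 of 9 cortical neuron genes and 2 of 9 glial genes summed to between 2.26 and 5.29 RPM in each of these libraries. The part of these differences in any result was not tested. The values of the library labelled FAD 1 are printed beside those of FAD 2, and the tests of density and class, the counts of clusters that do not overlap, the summed ratio and the counts of called regions and clusters are also given without it. Receptor coding sequences resemble each other, and the treatment of reads that match several places is not stated in the labels, so the receptor a read came from is uncertain.

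Receptor regions lay in the short coding exon far more often than other regions did. In the table of FAD and WT mice, 116 of 568 receptor regions (20.4%) were centred in the last exon of a gene, against 2.4% of all 33490 autosomal regions. In that of FAD-BIX and FAD mice this was 151 of 719 (21%) against 2.4% of 43268. Regions between genes made up 65.7% and 62% of the receptor regions, against 71.7% and 71.4% of all autosomal regions, and introns held 6.7% and 8.2% against 24.2% and 24.5%. The closeness to a receptor follows from how regions were assigned. The median distance to the start was 4829.5 and 4684 bp, and no receptor region lay farther than 74265 bp away.

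The same pattern was seen without using the assignment of regions to genes. Around the midpoints of the 1257 receptor genes of 2 kb or less in RefSeq, the central bin of 0.5 kb held 103 region centres in the table of FAD and WT mice and 134 in the other, which is 8.19 and 10.66 per 100 genes. The bins 1 kb to either side held 1 and 6 centres in the first table and 4 and 8 in the second. All bins within 10 kb other than the central bin, these included, held 1 to 24 centres in the first table and 4 to 34 in the second. Around 1338 other protein-coding genes of the same size, the central bin held 15 and 18 centres, which is 1.12 and 1.34 per 100 genes. The receptor profile thus had a single high bin, and the profile of other short genes had none of that height.

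**Figure D1:**
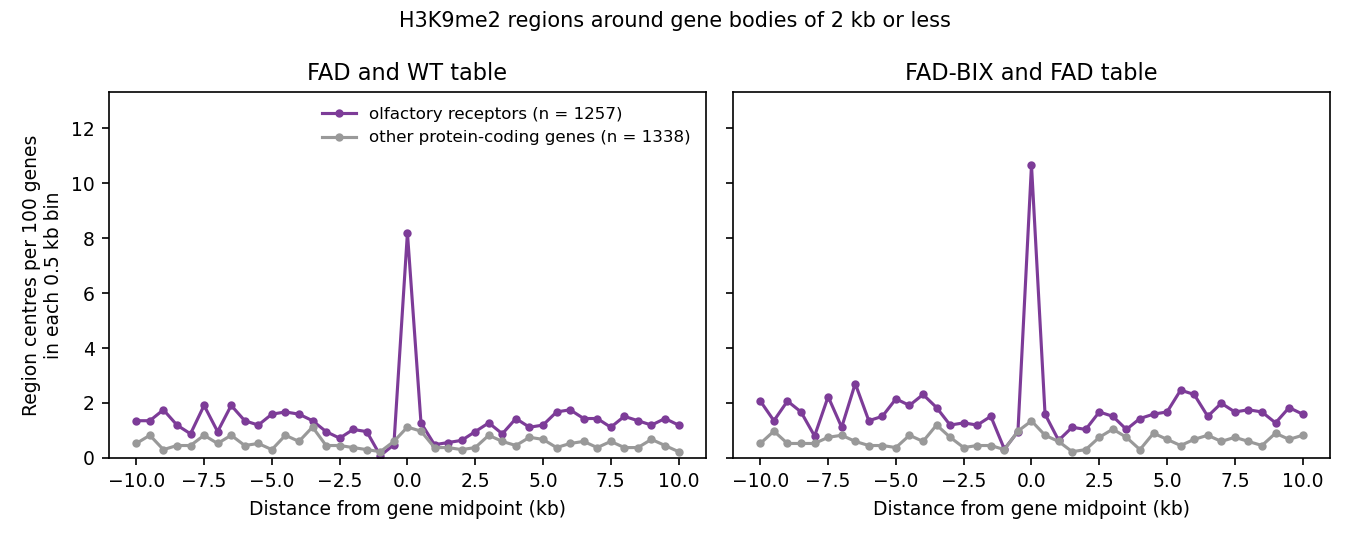
Region centres per 100 genes (vertical axis) by distance from the gene midpoint in kb (horizontal axis, bins of 0.5 kb) for 1257 receptor genes and 1338 other protein-coding genes of 2 kb or less, with all regions of each table. The receptor line reaches 8.19 and 10.66 in its central bin, and the line of the other genes 1.12 and 1.34.

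Each mouse showed this pattern in the calls of its own library. Regions called per Mb of short receptor bodies (2 kb or less, 1.17 Mb in all) were 12.8 and 7.69 in WT 1 and 2, 12.8 and 75.2 in FAD 1 and 2, and 30.8 and 32.5 in FAD-BIX 1 and 2. Over all autosomes the densities were 2.38, 1.66, 1.56, 8.79, 3.94 and 4.56 per Mb in the same order. Short receptor bodies were therefore 4.63 to 8.56 times as dense in calls as the autosomes, with a geometric mean of 6.79, and higher in 6 of 6 mice (exact two-sided sign-flip test over mice, p = 0.0312, the smallest that 6 mice allow). Short receptor bodies were 3.97 to 11.9 times as dense as the bodies of other short protein-coding genes, with a geometric mean of 5.62 and the same p in the exact test. Over the 4 tests made across mice, of density and of receptor class, both had a Benjamini-Hochberg adjusted p of 0.0625 from the exact test, above 0.05. Without FAD 1 the ratio to the autosomes was 6.54, and 5 mice allow no exact p below 0.0625. The densities in short receptor bodies rest on 15 and 9 calls in WT, 15 and 88 in FAD and 36 and 38 in FAD-BIX, and those in other short bodies on 4 and 3, 3 and 24, and 4 and 12. The ratio to the autosomes was 5.4 and 4.63 in WT, 8.24 and 8.56 in FAD and 7.82 and 7.13 in FAD-BIX, so that the groups did not overlap. The exact Poisson 95% intervals did, from 2.12 to 8.78 in WT 2 and from 4.61 to 13.6 in FAD 1, and they cover counting error only. The ratio of short receptor bodies to the bodies of other short protein-coding genes was 4.96 and 3.97 in WT, 6.62 and 4.85 in FAD and 11.9 and 4.19 in FAD-BIX, and the groups overlapped. The 11.9 of FAD-BIX 1 has 4 calls in its denominator. The separation was noticed after the values were seen, and 2 mice against 2 cannot give an exact permutation p below 0.333.

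The cluster spans here are bounded by RefSeq receptor genes less than 1 Mb apart, not by called regions, and are described without a test. In the spans outside receptor bodies, which cover 31.95 Mb, the density was 1.17 to 1.73 times that of the autosomes. All receptor bodies together were 1.85 to 3.23 times as dense as the rest of the spans.

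**Figure D2:**
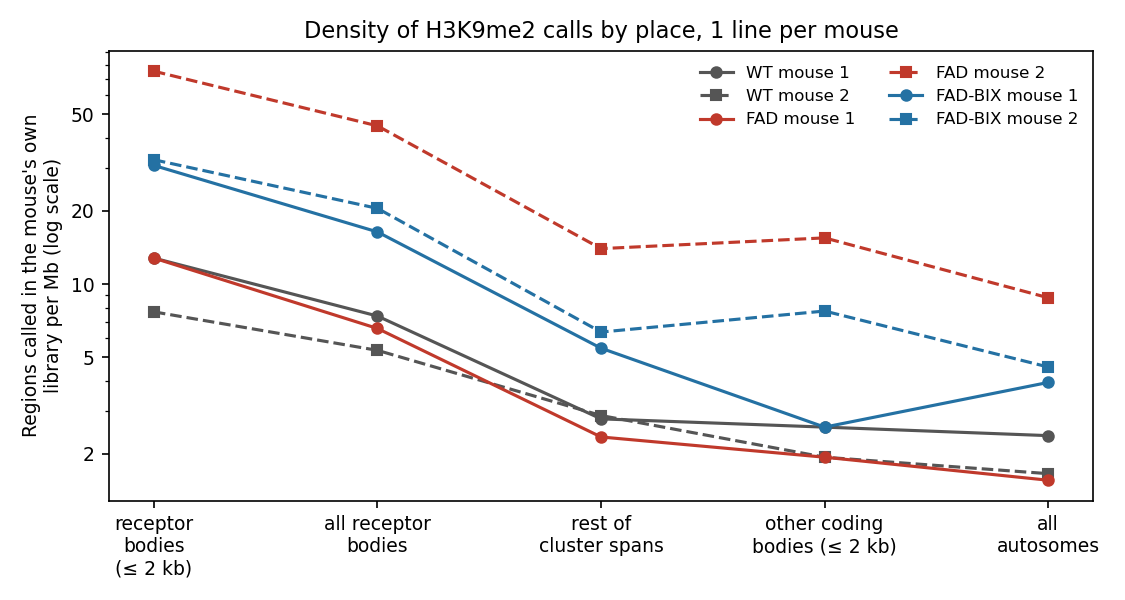
Regions called in a mouse's own ChIP library per Mb (vertical axis, log scale) in 5 kinds of place (horizontal axis), with 1 line per mouse. All 6 lines are highest in receptor bodies of 2 kb or less, from 7.69 per Mb in WT 2 to 75.2 per Mb in FAD 2.

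The bodies of Vmn1r genes, which encode vomeronasal pheromone receptors and are also short and clustered, were measured in the same way. They cover 0.38 Mb and met 3 regions in each table, or 7.87 per Mb. Short olfactory receptor bodies held 102.6 and 140.2 per Mb, and all autosomes 13.61 and 17.59. The difference between these families was not tested, since 3 regions leave most mice with no call. The log2 ratio of ChIP to input RPM summed over regions in short receptor bodies was 1.17 and 0.92 in WT, and 1.55 and 2.73 in FAD. Over all autosomal regions it was 1.16 and 1.05 in WT and 1.38 and 2.34 in FAD. The difference between these was not tested.

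Class I and class II receptors were compared by the number of RefSeq receptors with a region over the gene. In the table of FAD and WT mice, 30 of 160 class I receptors (18.8%) and 108 of 1119 class II receptors (9.65%) had one. In that of FAD-BIX and FAD mice these were 41 (25.6%) and 145 (13%). By mouse, class I was higher in 5 of 6 mice, at 1.25% against 1.07% in WT 2, 1.88% against 0.983% in FAD 1, 15.6% against 6.97% in FAD 2, 5% against 2.68% in FAD-BIX 1 and 6.88% against 3.31% in FAD-BIX 2. WT 1 was the exception, with 0.625% against 1.34%. The difference did not pass (exact sign-flip test over 6 mice, p = 0.0938, adjusted p = 0.0938), and neither did that of the density in short bodies (exact p = 0.0625, adjusted p = 0.0833). Without FAD 1, class I was higher in 4 of 5 mice in both, with an exact p of 0.188 for the share and 0.125 for the density. Receptors annotated as protein coding had a region over the gene in 11.5% and 15.4% of cases, and those annotated as pseudogenes in 6.35% and 8.25%.

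The share of receptors with a region over the gene varied among clusters. In the class I cluster on chromosome 7, from Olfr543 to Olfr691, it was 31 of 157 (19.7%) in the table of FAD and WT mice and 42 of 157 (26.8%) in the other. In the cluster with most receptors, on chromosome 2 from Olfr987 to Olfr1274-ps, it was 19 of 293 (6.48%) and 29 (9.9%). The cluster on chromosome 4 from Olfr1341 to Olfr1329 was high, with 7 of 11 (63.6%) and 6 (54.5%), and that on chromosome 11 from Olfr376 to Olfr410 was low, with 0 of 41 and 1 (2.44%). The last 2 were picked after their values were seen, and no test was made among clusters.

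The 8 clusters with most regions held 583 of the 887 receptor regions (65.7%), and the signal of every mouse was above its input in each of them. On chromosome 2 from Olfr987 to Olfr1274-ps, with 183 regions, the log2 ratio of summed ChIP RPM to summed input RPM was 1.25 and 1.24 in WT and 1.30 and 2.52 in FAD. In the table of FAD-BIX and FAD mice, where the regions differ, it was 1.22 and 2.30 in FAD and 1.50 and 1.73 in FAD-BIX. In the class I cluster on chromosome 7, with 86 regions, it was 1.03 and 0.62 in WT and 1.51 and 2.71 in FAD, and in the other table it was 1.41 and 2.31 in FAD and 1.16 and 1.99 in FAD-BIX. FAD 2 was the highest mouse in both clusters and in both tables. As regions enter a table by being called in a library, a ratio above 0 is in part how they were chosen.

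FAD 2 was also the highest mouse in the remaining 6 of these clusters. On chromosome 9 from Olfr876 to Olfr985 the ratio was 1.42 and 1.00 in WT and 1.57 and 2.24 in FAD. On chromosome 19 from Olfr1418 to Olfr1505 it was 0.97 and 1.00 in WT and 1.57 and 2.70 in FAD, and on chromosome 10 from Olfr763 to Olfr827 it was 1.72 and 0.94 against 1.64 and 2.28. On chromosome 14 from Olfr722 to Olfr748 it was 1.27 and 0.44 in WT and 1.21 and 2.46 in FAD. The groups overlapped on chromosomes 10 and 14 and did not on chromosomes 9 and 19. On chromosome 2 from Olfr1276 to Olfr1318 it was 1.11 and 1.57 in WT and 1.75 and 2.52 in FAD, and on chromosome 7 from Olfr695 to Olfr519 it was 1.09 and 1.09 against 1.74 and 2.69.

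**Figure D3:**
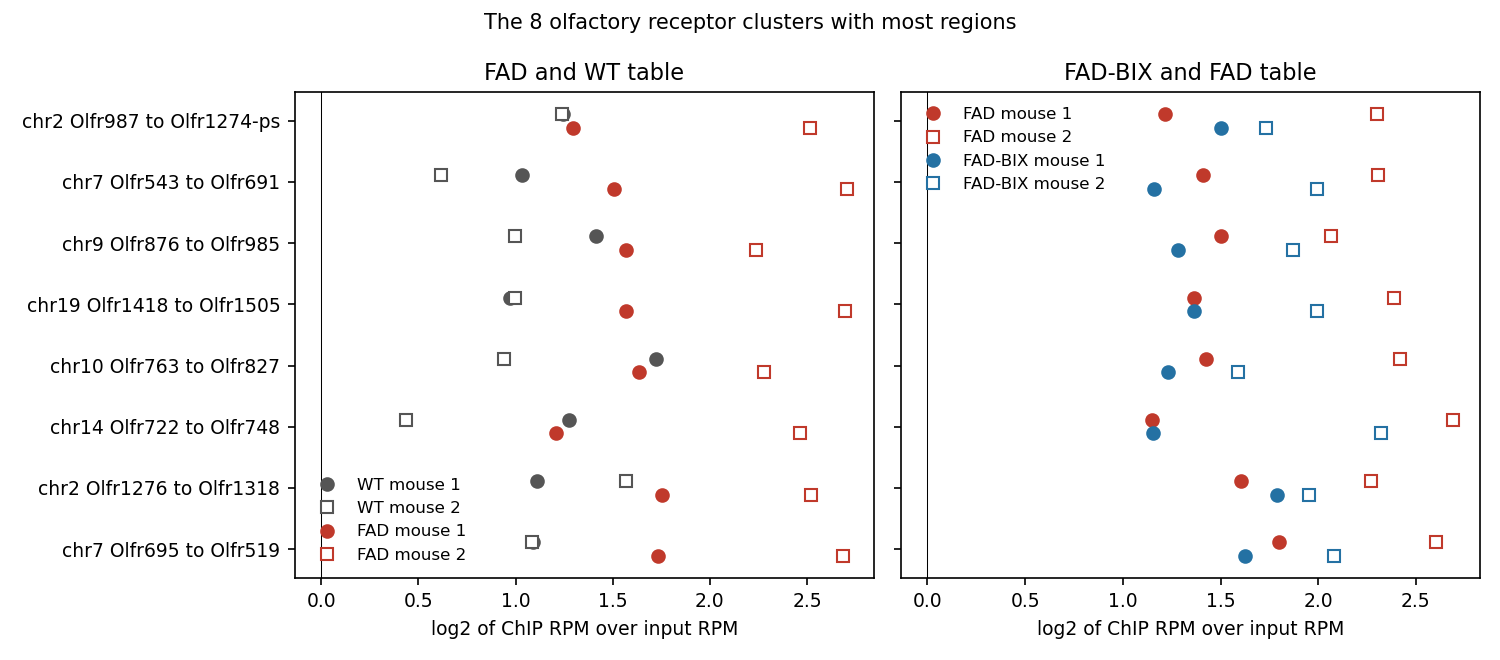
The log2 ratio of summed ChIP RPM to summed input RPM (horizontal axis) in the 8 receptor clusters with most regions (vertical axis), with 1 point per mouse in the table of FAD and WT mice and in that of FAD-BIX and FAD mice. FAD 2 lies farthest right in every cluster of both panels, at 2.52 in the first table for the cluster from Olfr987 to Olfr1274-ps, and some WT points cover each other.

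Over the 24 clusters with at least 5 regions in the table of FAD and WT mice, the median log2 ratio was 1.10 and 0.99 in WT and 1.52 and 2.52 in FAD. The lowest cluster of WT 2 was at -0.71 and the highest of FAD 2 at 3.51. Both FAD mice were above both WT mice in 17 of the 24 clusters by this ratio and in 12 by ChIP RPM per kb, and below in 0 by either. Over all 666 units with as many regions (receptor clusters and, for other regions, single genes) both FAD mice were above in 46.4% by the ratio and 36.8% by RPM per kb, and below in 0.751% and 0.45%. Without FAD 1, the remaining FAD mouse was above both WT mice in 24 of the 24 clusters by either measure, against 91.4% of all units by the ratio and 95.9% by RPM per kb. FAD 2 alone had called 367 of the 568 receptor regions of this table, so its place above the WT mice is in part how regions were chosen. Receptor clusters hold more regions than most genes, which was not taken into account. The library labelled FAD 1 was nearer to the WT mice than to FAD 2 in the median. In the other table, over 25 clusters, the median was 1.40 and 2.31 in FAD and 1.28 and 1.97 in FAD-BIX. There both FAD-BIX mice were above both FAD mice in 1 cluster and below in 3 by the ratio, against 7.22% and 16.8% of 845 units, and in 0 and 1 by RPM per kb, against 4.62% and 11.8%.

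Which library called the receptor regions was uneven. In the table of FAD and WT mice, FAD 2 called 395 of the 568, FAD 1 called 62, WT 1 called 77 and WT 2 called 67. In that of FAD-BIX and FAD mice, FAD 2 called 395 of 719, FAD 1 called 61, and FAD-BIX 1 and 2 called 156 and 165. Receptor regions were 1.31% to 1.81% of the calls of each library, so the receptors followed the number of calls each library had in all. Of the receptor regions, 94.5% and 92.5% were called in a single library, against 95% and 93.5% of all autosomal regions.

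A call in a single library went with signal in that library, which follows from how calls are made. At the 367 receptor regions that FAD 2 alone called in the first table, the median ChIP level was 1.15 RPM in FAD 2, 0.481 in FAD 1, and 0.368 and 0.451 in WT 1 and 2. At the 69 that WT 1 alone called it was 0.858 RPM in WT 1, 0.414 in WT 2, 0.361 in FAD 1 and 0.529 in FAD 2. The order of the mice therefore changed with the library that had made the call, and the set as a whole follows FAD 2, which made most of them.

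**Figure D4:**
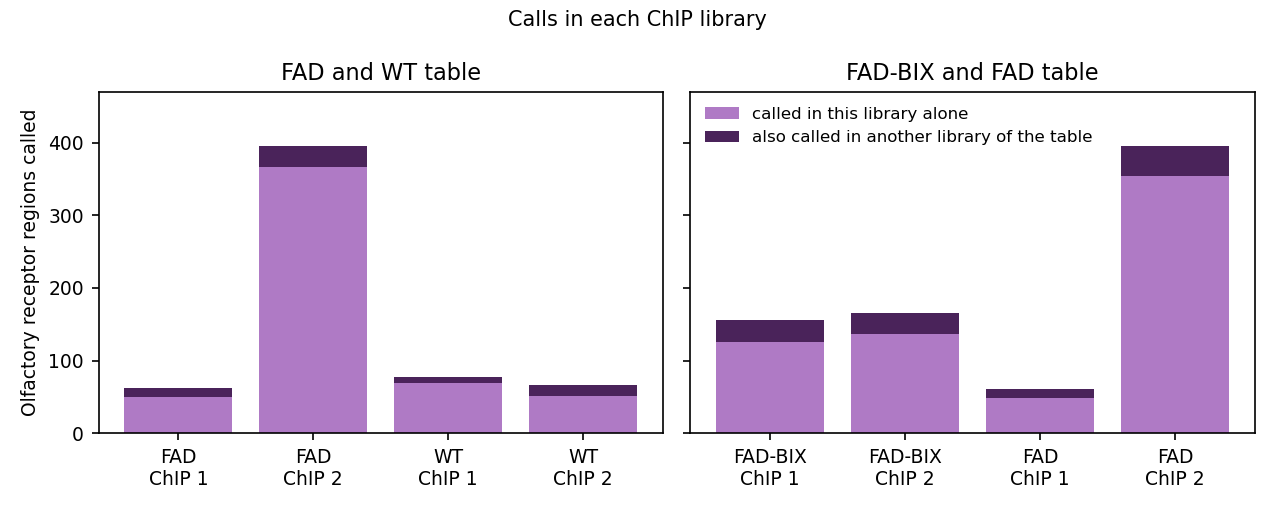
Receptor regions called in each ChIP library (vertical axis) for the 4 libraries of each table (horizontal axis), split into regions called in that library alone and regions also called in another. FAD 2 called 395 in each table, and no other library more than 165.

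No receptor region passed the test of ChIP counts between FAD and WT mice. Of 479 receptor regions that passed the filter on low counts, 0 had an adjusted p under 0.05 (edgeR's quasi-likelihood test with TMM scaling and Benjamini-Hochberg adjustment over all 27778 regions tested), and the smallest adjusted p was 0.832. Of all regions 0.0% were called. At an unadjusted p under 0.05, 2 receptor regions were higher in FAD and 12 lower (0.418% and 2.51%), against 0.918% and 4.97% of all regions. The median log2 fold was 0.08 over receptor regions and 0.01 over all regions. DESeq2 called 0 of 568 receptor regions, with 0 higher and 7 lower by unadjusted p under 0.05, against 67 and 930 of all 33787.

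Single regions are named where their mean level was at or above the median of the tested receptor regions and both pairs of same-numbered mice differed in 1 direction. A region near Olfr1217 (chr2:89044520-89044924) held 10 and 8 ChIP reads in the WT mice and 20 and 38 in the FAD mice, a log2 fold of 1.21 (SE 0.520, adjusted p = 0.832 by edgeR). A region near Olfr1253 (chr2:89748928-89749309) held 25 and 20 in the FAD mice against 8 and 7 (log2 fold 1.22). One in the last intron of Olfr272 (chr4:52913627-52914023) held 18 and 37 against 6 and 13 (1.08). In these 3 regions both FAD mice had more reads than both WT mice. That is in part how they were picked, by the smallest p and by direction. Input reads were between 0 and 13 in each library. Of these 3, the region near Olfr1217 alone had an unadjusted p under 0.05. The other region in the count of 2 lay near Olfr1505 (chr19:13949344-13949652), below that level, and was looked up after its values were seen. It held 16 and 24 ChIP reads in the FAD mice against 3 and 7, and 3 and 0 input reads against 11 and 5 (log2 fold 1.57, adjusted p = 0.848 by edgeR).

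In the lower direction, a region near the pseudogene Olfr1369-ps1 (chr13:21119383-21119825) held 18 and 35 ChIP reads in the WT mice and 12 and 13 in the FAD mice, a log2 fold of -1.45 (SE 0.520, adjusted p = 0.832 by edgeR). One near Olfr1261 (chr2:89987025-89987319) held 8 and 13 against 21 and 18 (-1.33). One near Olfr1315-ps1 (chr2:112104758-112105368) held 18 and 27 against 36 and 34 (-1.07), and it was called in 3 libraries. By RPM its groups overlapped, at 0.722 and 1.30 in FAD, against 1.47 and 1.28 in WT. The only other receptor region that 3 libraries called in this table, near Olfr1008 (chr2:85693722-85694496), held 30 and 43 in FAD, against 10 and 51 in WT, where the groups overlapped.

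The 6 regions over a receptor gene with most ChIP reads in this table were at Olfr691, Olfr605, Olfr457, Olfr543, Olfr559 and Olfr235. Over the last exon of Olfr691, a class I receptor (chr7:105336949-105337660), ChIP was 1.89 and 1.88 RPM in FAD, against 0.327 and 1.39 in WT. Input there was 0.418 and 0.663 RPM in FAD, against 0.421 and 1.27 in WT. ChIP was thus below input in WT 1 and close to it in WT 2, and neither WT library called the region. Over Olfr605, in the class I cluster (chr7:103442448-103443128), ChIP was 1.44 and 1.83 RPM in FAD, against 0.980 and 0.752 in WT. Over Olfr457 it was 1.28 and 2.98 against 1.31 and 0.828, and over Olfr543 (chr7:102476877-102477753) 1.20 and 2.40 against 1.06 and 0.828. In the 3′ UTR of Olfr559 (chr7:102723519-102724426) it was 1.32 and 2.69 RPM in FAD, against 1.06 and 1.24 in WT. In the last intron of Olfr235 (chr19:12264568-12265220) it was 0.922 and 1.97 against 0.817 and 1.13. The groups overlapped at Olfr457 and Olfr235 and not at Olfr691, Olfr605, Olfr543 and Olfr559. None of these passed the test (adjusted p 0.951 at Olfr691 by edgeR). Both FAD mice were above both WT mice by RPM per kb in 36.8% of the 666 units with 5 or more regions. The share over single regions was not computed.

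Summing reads over whole clusters gave more counts and no called cluster. Reads were summed per receptor cluster and, for all other regions, per gene, and 36 receptor clusters were tested among 3289 such units. None was called (0 of 36, smallest adjusted p 0.936 by edgeR; 0.0% of all units), 0 had an unadjusted p under 0.05 in either direction, and DESeq2 called 0. By unadjusted p under 0.05, 1.4% of all units were higher and 3.59% lower. The median log2 fold was -0.02 over receptor clusters and -0.03 over all units. The smallest p in the higher direction was at chromosome 9 from Olfr24 to Olfr39, where ChIP was 1.34 and 3.004 RPM per kb of region in FAD, against 0.881 and 1.02 in WT (log2 fold 0.52, SE 0.247, adjusted p = 0.936 by edgeR, and a fold of 1.19 with library totals in place of TMM scaling). The input of that cluster went the other way (log2 fold -0.76, adjusted p = 0.942 by edgeR). In the lower direction it was at chromosome 13 from Olfr1370 to Olfr1362, with 1.32 and 2.29 RPM per kb in FAD, against 1.62 and 1.57 in WT (log2 fold -0.44, SE 0.245, adjusted p = 0.936 by edgeR). The mean RPM per kb runs the other way there, and with library totals the fold was 0.18.

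No receptor cluster passed the test in the input libraries. Of 27 clusters tested in the inputs of FAD and WT mice, 0 were called and 0 were higher and 2 lower by unadjusted p under 0.05, against 1.79% and 2.77% of 1228 units. In the inputs of FAD-BIX and FAD mice it was 0 of 29 called, with 0 higher and 1 lower, against 0.829% and 2.74% of 1206 units.

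No receptor region passed the same test between FAD-BIX and FAD mice. Of 548 receptor regions tested, 0 were called (smallest adjusted p 0.897 by edgeR), as were 0.0% of all 31055. At an unadjusted p under 0.05, 18 were higher in FAD-BIX and 8 lower (3.28% and 1.46%), against 3.93% and 1.18% of all regions. The median log2 fold was -0.04, and 0.03 over all regions. DESeq2 called 0 of 719, with 9 higher and 3 lower by unadjusted p under 0.05, against 728 and 143 of all 43680. The FAD libraries are the same in both comparisons, so the comparisons are not independent of each other.

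The region with the smallest p in the higher direction was near Olfr816 (chr10:129916794-129917396), with 16 and 10 ChIP reads in the FAD mice and 28 and 30 after BIX01294, a log2 fold of 1.52 (SE 0.538, adjusted p = 0.897 by edgeR). Regions near Olfr1018 (chr2:85824327-85824829) with 29 and 21 against 10 and 14 reads, and near Olfr1209 (chr2:88923332-88923746) with 31 and 20 against 12 and 13, had log2 folds of 1.48 and 1.43. In all 3, both FAD-BIX mice had more reads than both FAD mice, which is in part how they were picked. In the lower direction, a region in the last intron of Olfr1220 (chr2:89100183-89100703) held 29 and 29 reads in the FAD mice and 9 and 2 after BIX01294 (log2 fold -1.98, SE 0.683, adjusted p = 0.897 by edgeR).

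The region over the last exon of Olfr691 was also among the lowest, with 19 and 5 reads in FAD-BIX against 47 and 39 in FAD (log2 fold -1.46, SE 0.566, adjusted p = 0.897 by edgeR). Its input reads were 11 and 4 in FAD-BIX, against 6 and 10 in FAD. One in the last intron of Olfr164 (chr16:19308511-19308875) held 5 and 9 reads against 18 and 40 (-1.56). At Olfr605, the region called in 3 of the 4 libraries, ChIP was 1.37 and 0.773 RPM in FAD-BIX, against 1.44 and 1.83 in FAD. The other regions called in 3 libraries were near Olfr1494 (chr19:13737227-13737859), Olfr297 (chr7:86528780-86529399) and Olfr479 (chr7:108056926-108058175). Their ChIP levels in FAD-BIX were 1.57 and 1.64, 1.32 and 1.00, and 2.25 and 2.86 RPM, and in FAD 0.722 and 1.78, 0.642 and 1.78, and 2.21 and 3.94 RPM, so that the groups overlapped at each. Olfr605, Olfr543, Olfr559, Olfr457, Olfr1331 and Olfr1339 had the 6 regions over a gene with most ChIP reads in this table. ChIP at Olfr543 was 0.734 and 0.955 RPM in FAD-BIX, against 1.20 and 2.40 in FAD. At Olfr559 it was 0.832 and 1.32 against 1.32 and 2.69, at Olfr457 1.27 and 1.50 against 1.28 and 2.98, at Olfr1331 1.47 and 0.636 against 0.882 and 2.12, and at Olfr1339 0.880 and 1.55 against 1.04 and 1.97. The groups overlapped at Olfr457, Olfr1331 and Olfr1339 and not at Olfr605, Olfr543 and Olfr559. Both FAD-BIX mice were below both FAD mice by RPM per kb in 11.8% of the 845 units with 5 or more regions. The share over single regions is not given.

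No receptor cluster was called in FAD-BIX against FAD, either. Of 37 tested among 3575 units, 0 were called (smallest adjusted p 0.792 by edgeR; 0.0% of all units), and 1 was higher and 1 lower by unadjusted p under 0.05, against 3.86% and 1.34% of all units. DESeq2 called 0 clusters. The higher one was on chromosome 17 from Olfr55 to Olfr63, with 2.59 and 1.84 RPM per kb in FAD-BIX, against 1.26 and 2.33 in FAD (log2 fold 0.67, SE 0.304, adjusted p = 0.792 by edgeR). The lower one was on chromosome 4 from Olfr272 to Olfr270, with 0.890 and 0.993 against 1.46 and 3.68 RPM per kb (log2 fold -1.02, SE 0.47, adjusted p = 0.792 by edgeR). These clusters rest on 4 and 2 regions. In the largest cluster, from Olfr987 to Olfr1274-ps, ChIP was 1.60 and 1.51 RPM per kb in FAD-BIX, against 1.28 and 2.41 in FAD, with a log2 fold of 0.13 (SE 0.160) under TMM scaling and of -0.25 with library totals.

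The direction at receptors depended on how libraries were scaled and on which regions entered. TMM scaling sets the typical region to no change, and with library totals instead the median log2 fold of the receptor regions was 0.74 in FAD against WT, with 10 higher and 0 lower by unadjusted p under 0.05. All 27778 regions moved alike, to a median of 0.64, with 641 higher and 69 lower. In FAD-BIX against FAD the same change gave a median of -0.44, with 1 higher and 11 lower. Over all 31055 regions the median was -0.34, with 137 higher and 456 lower. No receptor region was called under library totals in either comparison. Leaving out the library labelled FAD 1 under library totals gave 24 of 37 receptor clusters called, all higher in the remaining FAD mouse, against 16.1% of all 3743 units called higher and 0.267% called lower. The median log2 fold was then 1.08 over receptor clusters and 1.02 over all units. In FAD-BIX against FAD it gave 9 of 41 clusters called, all lower, against 2.29% of 4198 units called lower and 0.0715% called higher, with medians of -0.72 and -0.61. Leaving out FAD 2 in its place gave 0 called clusters, and medians of 0.06 and 0.19. Without the regions that FAD 2 alone had called, under TMM scaling, the median log2 fold was -0.43 over receptor clusters and -0.60 over all units in FAD against WT, and 0.50 and 0.57 in FAD-BIX against FAD. With a single FAD mouse left, its spread is taken to be that of the other group. Without FAD 1 the mouse left is FAD 2, which alone had called 367 of 568 receptor regions in the first table. In the second table FAD 2 alone had called 354 of 719. Its higher level in these fits is therefore in part how the regions were chosen. Receptor clusters also hold more regions than most genes, which was not taken into account in these shares.

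**Figure D5:**
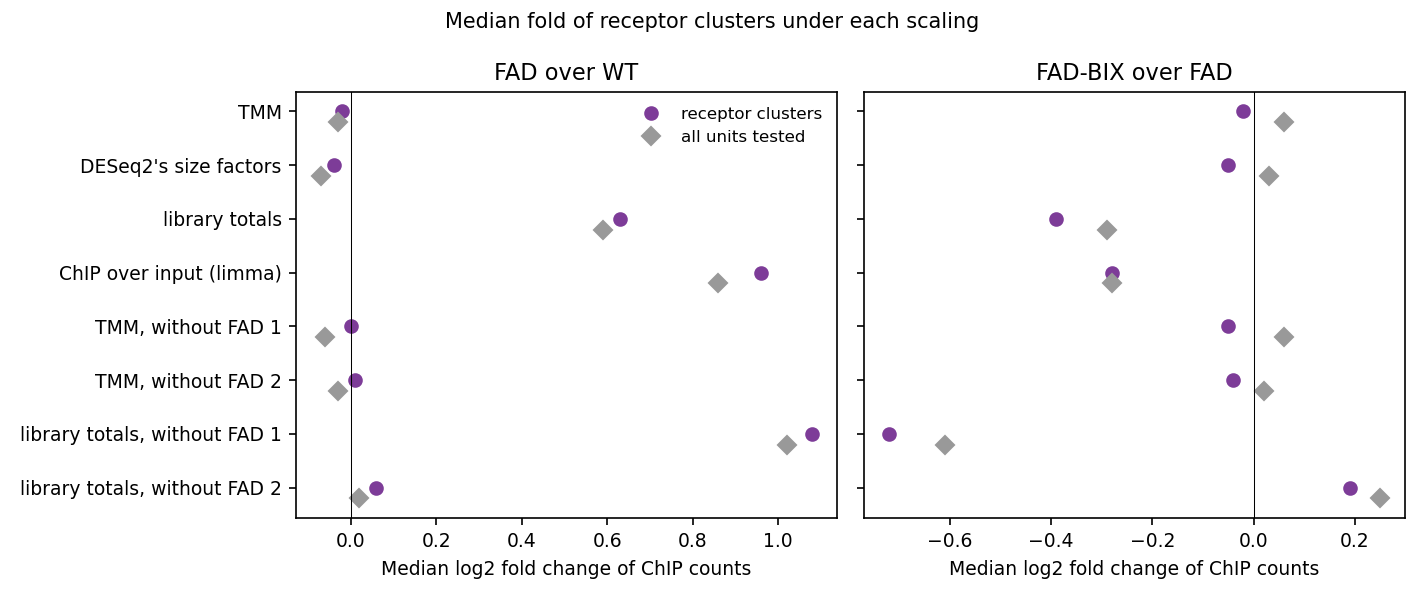
Median log2 fold change of ChIP counts (horizontal axis) over receptor clusters and over all units tested, under 8 ways of scaling or leaving out a FAD mouse (vertical axis). The receptor median lies beside that of all units in each row, from -0.02 under TMM to 1.08 under library totals without FAD 1 in FAD against WT.

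Summed over all receptor regions, the log2 ratio of ChIP to input RPM was 1.14 and 0.99 in WT and 1.45 and 2.54 in FAD. Both FAD mice were above both WT mice, by 0.93 in the mean. Without the 367 of the 568 regions that FAD 2 alone had called, the difference was 0.21. Over all other autosomal regions the ratio was 1.16 and 1.05 in WT and 1.37 and 2.34 in FAD, a difference of 0.75. The receptors minus the other regions came to -0.02 and -0.06 in WT and 0.07 and 0.20 in FAD. In the other table the receptor ratio was 1.33 and 2.28 in FAD and 1.35 and 1.85 in FAD-BIX, where the groups overlapped, and receptors minus other regions came to -0.02 and 0.11 in FAD and 0.05 and 0.11 in FAD-BIX. With 2 mice against 2, an exact permutation test cannot go below 0.333, so none of these differences could pass.

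The ratio at class I receptor regions was 1.02 and 0.65 in WT and 1.46 and 2.68 in FAD, and at class II regions 1.14 and 1.03 in WT and 1.44 and 2.53 in FAD. Receptor pseudogenes gave 0.99 and 1.41 in WT and 1.49 and 2.78 in FAD. Regions centred in a last exon gave 1.21 and 0.91 in WT and 1.50 and 2.72 in FAD, close to those between genes with 1.12, 0.98, 1.47 and 2.47. In each of these groups of regions both FAD mice were above both WT mice. The same order was seen over all other autosomal regions, at 1.16 and 1.05 in WT and 1.37 and 2.34 in FAD. Some of the groups share regions, so they are not separate results. The median log2 fold in the count test was 0.16 over 46 tested class I regions and 0.06 over 424 class II regions, and -0.01 over 55 and -0.05 over 482 in FAD-BIX against FAD.

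Most receptors had few regions, and 319 of the 545 had 1 over both tables. The most were at Olfr730 with 7, Olfr1505 and Olfr19 with 6, and 7 receptors with 5, of which Olfr1209 and Olfr1305 were taken by the order of their names. Over the 5 regions at Olfr730 in the first table ChIP summed to 2.61 and 1.73 RPM in WT and 2.25 and 3.94 in FAD, and input to 1.39 and 2.08 in WT and 0.627 and 0.331 in FAD. At Olfr1505 ChIP was 1.96 and 1.73 in WT and 2.89 and 5.67 in FAD, and at Olfr19 it was 1.84 and 1.47 against 1.89 and 4.18. At Olfr1209 it was 2.25 and 1.96 against 1.72 and 3.17, and at Olfr1305 it was 1.96 and 2.90 against 2.65 and 2.16. At Olfr1305, FAD 2 was below WT 2 and FAD 1.

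A region near Olfr1305 (chr2:111871221-111871493) was the only receptor region called under any alternative. It held 13 and 24 ChIP reads in WT, 10 in FAD 1 and 0 in FAD 2, with an adjusted p of 0.868 with all mice and 0.0261 without FAD 1 (edgeR). That call rests on FAD 2 alone, and 119 of the 32835 regions tested were called in the same fit.

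Of 12 well-studied receptors, 5 had a region. Olfr2, the I7 receptor for octanal, had 1 region with 6 and 13 ChIP reads in WT, 17 and 26 in FAD and 17 and 17 in FAD-BIX. Olfr1507, known as MOR28, had 1 region with 8 and 8 reads in WT, 4 and 22 in FAD and 12 and 2 in FAD-BIX. Olfr16, known as MOR23, had 1 region in the first table with 5 and 5 reads in WT and 6 and 20 in FAD, and 2 in the other with 18 and 16 in FAD and 51 and 10 in FAD-BIX. Olfr558, a class I receptor, had 1 region in the second table only, with 9 and 4 reads in FAD and 6 and 22 in FAD-BIX. Olfr691 is described above. At Olfr2, and at Olfr16 in the first table, the reads of both FAD mice were above those of both WT mice. At Olfr1507 and Olfr16 the mice of a group differed more than the groups did. By RPM per kb, both FAD mice were above both WT mice in 36.8% of the 666 units with 5 or more regions. The share over single regions was not computed.

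Genes of olfactory signalling and of receptor choice were counted from a list. Of 42 listed genes, 7 had a region in the first table, with 20 regions tested, 0 called, and 0 higher and 0 lower by unadjusted p under 0.05, against 0.918% and 4.97% of all regions. A region was found at 10 of them in the second table, with 25 tested, 0 called, 1 higher and 0 lower, against 3.93% and 1.18%. The smallest p in FAD against WT was near Pde1c, a phosphodiesterase that breaks down cyclic AMP and cyclic GMP (chr6:56425055-56425439), with 23 and 24 ChIP reads in the WT mice and 18 and 7 in the FAD mice (log2 fold -1.20). The next gene was Ebf1, a transcription factor that binds receptor promoters, with 12 and 20 against 6 and 5 reads in an intron (1.07). In FAD-BIX against FAD an intron of Pde1c (chr6:56274749-56275045) held 1 and 2 reads in the FAD mice and 17 and 11 after BIX01294, and was the region higher at an unadjusted p (adjusted p = 0.897 by edgeR). The next gene was Ano2, the chloride channel of olfactory cilia, with 15 and 18 against 5 and 12 reads in an intron (log2 fold 1.41). Ehmt1, which encodes a target of BIX01294, had 1 intronic region with 14 and 22 reads in FAD, against 8 and 7 in WT. Its log2 fold was 0.81 (adjusted p = 0.93 by edgeR). In FAD-BIX the region held 9 and 7 reads, a log2 fold of -0.72 against FAD (adjusted p = 0.923 by edgeR).

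Other chemoreceptor families were measured for comparison. Vomeronasal receptors had 160 and 176 regions in the tables, of which 132 and 135 were tested and 0 called. Their median log2 fold was -0.06 in FAD against WT and -0.05 in FAD-BIX against FAD, beside 0.08 and -0.04 for the olfactory receptors. Taste, trace amine and formyl peptide receptors and the Ms4a genes had 33 and 38 regions, of which 27 and 24 were tested and 0 called, with 0 higher and 1 lower by unadjusted p under 0.05 in the first comparison and 1 and 0 in the second. Their median log2 fold was -0.20 and -0.22. Of the vomeronasal receptor regions, 2.5% and 2.8% were centred in a last exon. Called in all 4 libraries were 10 and 7 vomeronasal receptor regions, and 0 olfactory receptor regions in either comparison. Over all autosomal regions these were 39 of 33490 and 50 of 43268, or 0.1% in each table. The 0 at olfactory receptors is near that share.

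In the authors' deposited table of FAD and WT mice, 23 receptor regions had a p under 0.05 with a higher fold enrichment in FAD and 3 with a lower one (4.05% and 0.528%), against 2.14% and 0.533% of all regions. In the authors' deposited table of FAD-BIX and FAD mice these were 4 and 9 (0.556% and 1.25%), against 0.778% and 1.31%. The q-value in the authors' deposited table was 1 at each receptor region. The authors' deposited log2 fold is the ratio of the group means of enrichment, and its median at receptor regions was 1.01 and -0.28, against 0.90 and -0.18 over all regions.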

How the data were processed

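H3K9me2 ChIP and input libraries of 6 mice were used. The submitters' processing notes name mm9 as the build, BWA 0.7.12 and MACS2 2.1.0, besides FastQC and Trimmomatic. However, 98.8% and 98.5% of the receptor positions in the tables overlapped the same receptor in RefSeq GRCm38.p6, so coordinates are given as GRCm38. Reads were 50 bp single-end or 150 bp paired-end, per the labels' protocols.

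Per the file headers, the authors deposited counts of reads per region and library, RPM, log2 fold changes, p-values and q-values, and a mark for each library in which a region was called. The deposited RPM holds reads plus 1, which gave the library totals (largest relative deviation 4.75e-06). RPM in the text is computed from the counts without the added read. Duplicate rows were merged, from 34413 to 33787 and from 44428 to 43680.

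The test of ChIP counts used edgeR 4.0.16 under R 4.3.3 (filter on low counts, TMM scaling, quasi-likelihood test, Benjamini-Hochberg adjustment over all features, threshold 0.05). Alternatives used DESeq2 1.42.0 and limma 3.58.1. The tests were tried on simulated data with 1 spread for all units. For FAD and WT the region test recovered 0% of 2-fold, 0% of 4-fold and 27.3% of 8-fold changes. The cluster test recovered 1.5%, 55.2% and 92.4%. For FAD-BIX and FAD these were 0%, 7.5% and 43.9% for regions, and 10.4%, 65.7% and 98.5% for clusters. Class follows the MOR family number in RefSeq (up to 42 is class I), and 6 receptors with numbers of both classes were left out of it.

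Items were named by rule. Clusters were the 8 with most regions and the smallest p per direction. Regions were the 3 with the smallest p per direction among those tested with a mean log2 CPM at or above the median of the tested receptor regions and with 1 direction in both pairs of same-numbered mice, those called in 3 or more libraries, and up to 6 over a receptor gene with most ChIP reads per table. Receptors were the 5 with most regions and those of 12 well-studied ones that had a region, and pathway genes the 2 with the smallest p in each comparison. Ehmt1 and the region near Olfr1505 were added after their values were seen. Members and lists were chosen with earlier results of these data known, and the densities and class tests were added after the data were seen. The p-values measure the spread between these mice.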

Additional observations from a re-analysis of the deposited data

How the results depend on the processing

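No receptor region or cluster was called in either comparison as processed above, nor with DESeq2, its size factors in edgeR, library totals, no filter on low counts, limma on ChIP over input, or, for clusters, gaps under 0.5 Mb or regions called in at least 2 libraries. Same-numbered mice share only a number: the deviations of their ChIP libraries correlated at 0.07 and -0.04 over all regions, and with the replicate block 0 receptor regions and 0 clusters were called. Leaving out 1 mouse at a time gave 0 to 1 called regions in FAD against WT and 0 in FAD-BIX against FAD. Under library totals (chosen after seeing the data) it gave 0 to 24 called clusters and 0 to 9, the highest each without FAD 1. At an unadjusted p under 0.05, receptor regions in FAD against WT were 2 higher and 12 lower. They were 29 and 3 with limma on ChIP over input, and 1 and 20 without the filter. Over all regions the counts were 255 and 1381 of 27778, 1529 and 308 with limma, and 255 and 1819 of 33787 without the filter. In FAD-BIX against FAD the receptor counts were 18 and 8, but 8 and 12 with limma. Over all 31055 regions these were 1221 and 365, and 476 and 882 with limma. Without FAD 1 the median log2 fold of receptor regions in FAD against WT was 0.13, and 1.21 under library totals. Over all regions it was 0.01 and 1.08. In FAD-BIX against FAD these medians were -0.09 and -0.76 over receptor regions, and 0.1 and -0.57 over all. The causes were not tested.

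The summed receptor ratio in FAD against WT, 0.93, kept its sign, at 0.10 with TMM factors, 0.21 without the regions that FAD 2 alone called (chosen after seeing the data) and 0.38 to 1.48 leaving out 1 mouse. In FAD-BIX against FAD it was -0.20, but 0.26 with TMM factors, 0.53 without those regions, and -0.68 to 0.27 leaving out 1 mouse, with 0.04 without FAD-BIX 1 and 0.27 without FAD 2. The fold of the cluster from Olfr1370 to Olfr1362 in FAD against WT, -0.44, became 0.18 with library totals, 0.67 with limma on ChIP over input, and 0.20, 0.16 and 0.52 under library totals without WT 1, WT 2 and FAD 1. That of the cluster from Olfr55 to Olfr63 in FAD-BIX against FAD became -0.07 under library totals without FAD 1. The causes were not tested.

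The density of calls in short receptor bodies, 6.79 times that of the autosomes, was 6.49 to 7.34 leaving out 1 mouse, where 5 mice allow no exact p below 0.0625. It was 3.99 over receptor bodies of any length, and 8.75 and 9.7 among regions called in 2 or more libraries, which rest on 7 and 13 regions. Depth limits single regions: 479 of 568 and 548 of 719 receptor regions passed the filter on low counts.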
